A study of Mus musculus with 24 samples.

Results

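The 10 genes described here make up the corticosteroid signalling set of the hippocampal libraries. They were taken by symbol for their known roles: the receptor genes Nr3c1 and Nr3c2, the enzyme gene Hsd11b1, and 7 genes that respond to glucocorticoids, Fkbp5, Sgk1, Tsc22d3, Zbtb16, Pdk4, Mt1 and Mt2. All 10 were found among the 24062 genes counted, and all 10 were among the 16313 genes that passed the filter on low counts. RNA of micro-dissected hippocampus from C57BL/6 mice had been sequenced in 24 libraries that cross genotype with social stress. The groups were 6 libraries of wild-type (WT) mice put through social defeat by paired fighting (WT stress), 7 of unstressed WT mice (WT control), 5 of stressed mice with a neuronal knockout of the interleukin-1 receptor IL-1R1 (KO stress) and 6 of unstressed knockout mice (KO control). All groups shared the C57BL/6 background. The labels name neither the driver of the knockout, the age or sex of the mice, the interval from the last fight to dissection nor the hour of dissection, and they do not say that each library is 1 mouse. The p-values below therefore measure the spread between these libraries, which may be technical in part.

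Corticosterone, the glucocorticoid of rodents, reaches hippocampal cells through the blood and acts on a pair of related nuclear receptors. The mineralocorticoid receptor, encoded by Nr3c2, binds it with high affinity and is abundant in hippocampal neurons, while the glucocorticoid receptor, encoded by Nr3c1, is expressed in most cells and is occupied mainly at the high hormone levels of stress and the daily peak. Bound receptors enter the nucleus and act on target genes, among others through glucocorticoid response elements. Many of these targets, such as Fkbp5, Sgk1 and Tsc22d3, are widely used as transcript readouts of hormone exposure in brain.

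Start regions were searched in a RefSeq table of promoters (GRCm38.p6), each window reaching from 250 bases before to 50 bases after a start site. Nr3c1 was left out of this search, and no window was found for Zbtb16. The counts below thus cover 8 of the 10 genes, with 15 windows in all. The palindromic glucocorticoid response element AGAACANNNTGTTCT, where N is any base, was present in 3 of 32851 promoter windows of the mouse genome (0.00913%), and 1 of those 3 belonged to Sgk1. AGAACA alone, which is 1 arm of the palindrome and so overlaps it, was searched on both strands and was in 19.0% of all windows and in 4 of the 15 windows of these genes. The metal response element, searched as TGCACNC and TGCGCNC on both strands, was in 25.7% of all windows and in 5 of the 15 windows of these genes. It had 4 matches in the Mt2 window, 3 in the Mt1 window and 1 each in the windows of Hsd11b1 and Nr3c2 and in 1 of the 6 Sgk1 windows. The 3 windows are printed because Sgk1 had the largest averaged stress difference of the 10 genes in the high-numbered library set described below, and because Mt1 and Mt2 are neighbours whose starts can be compared. Capitals mark the response elements, the palindrome in Sgk1 (chr10:21993640-21993939, plus strand, 1 of 6 annotated starts) and the metal response elements in Mt2 (chr8:94172368-94172667, plus strand) and Mt1 (chr8:94178839-94179138, plus strand), each 5′ to 3′.
Sgk1: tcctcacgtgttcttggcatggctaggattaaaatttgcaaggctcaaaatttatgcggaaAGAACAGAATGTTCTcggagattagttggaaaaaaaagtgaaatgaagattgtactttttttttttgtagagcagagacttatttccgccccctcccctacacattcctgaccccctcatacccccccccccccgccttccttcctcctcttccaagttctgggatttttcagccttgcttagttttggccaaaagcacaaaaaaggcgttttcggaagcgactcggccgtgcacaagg
Mt2: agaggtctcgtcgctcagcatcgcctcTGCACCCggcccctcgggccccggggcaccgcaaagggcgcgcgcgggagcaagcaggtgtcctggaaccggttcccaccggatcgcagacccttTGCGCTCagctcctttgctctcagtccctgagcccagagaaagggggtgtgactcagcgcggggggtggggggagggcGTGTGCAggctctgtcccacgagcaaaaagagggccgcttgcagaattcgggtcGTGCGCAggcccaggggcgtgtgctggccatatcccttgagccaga
Mt1: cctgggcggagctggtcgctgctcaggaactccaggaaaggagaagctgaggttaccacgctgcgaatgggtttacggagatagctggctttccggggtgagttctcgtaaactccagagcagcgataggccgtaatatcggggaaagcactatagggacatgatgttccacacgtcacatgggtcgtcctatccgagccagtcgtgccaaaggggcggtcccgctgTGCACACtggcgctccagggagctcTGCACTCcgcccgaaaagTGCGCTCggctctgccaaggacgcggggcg
The Sgk1 palindrome begins 189 bases before its start site (written −189 from the start). A match describes letters in these windows, and which start the counted reads came from was not measured.

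The libraries fell into 2 sets by the level of Rn45s, the precursor of ribosomal RNA, and the sets follow the replicate numbers of the titles. Reads scaled to the library total (CPM) were, for Rn45s, 4107 to 8786 in 13 high-numbered libraries (WT stress 3 to 6, WT control 4 to 7, KO stress 3 to 5, KO control 5 and 6) and 24238 to 50453 in 11 low-numbered libraries (WT stress 1 and 2, WT control 1 to 3, KO stress 1 and 2, KO control 1 to 4). No label names these sets, and what made them was not tested. Total counts ran from 25711872 to 35148198 per library. Il1r1, the targeted gene, ranged from 3.77 to 7.93 CPM in KO stress and 3.36 to 7.31 CPM in WT stress, and from 2.10 to 5.46 CPM in KO controls and 1.99 to 5.64 CPM in WT controls, so its counts over whole tissue do not part the genotypes. The summed level of 10 markers of CA1 and CA3 pyramidal cells was 643 to 1279 CPM and that of 10 dentate granule cell markers 183 to 437 CPM over the 24 libraries, with no marker of either list at 0. Among high-numbered libraries, WT stress 5 and KO stress 3 and 5 held 2129, 2170 and 1982 CPM of 16 thalamus and habenula markers, against 994 to 1266 CPM in the other high-numbered libraries. The low-numbered libraries held 1406 to 1788 CPM of these markers. Cplx1 weighs heavily in all these sums, with 21850 to 37829 reads per library, against 408 to 7702 for Prkcd, the marker with the next highest maximum. Because those 3 libraries stand apart within the high-numbered set, its results are also given without them.

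Scaled to the length of their exons, the 10 genes spanned a wide range of abundance. Mt2 and Mt1, which encode small proteins that bind zinc and copper and lie next to each other on chromosome 8, were the most abundant, with a median over the 24 libraries of 379 and 343 CPM per kb of exon. The annotated exons of Mt1 cover its whole gene of 1246 bases, so its value per kb may be too low. Next stood Sgk1, a kinase that regulates ion channels and transporters, at 26.2 CPM per kb, Tsc22d3, which encodes the leucine zipper protein GILZ, at 23.7 CPM per kb, and the transcription factor gene Zbtb16 at 12.2 CPM per kb. Fkbp5, whose product is a co-chaperone that lowers the hormone affinity of the glucocorticoid receptor, had a median of 7.48 CPM per kb. The enzyme gene Hsd11b1 (5.97 CPM per kb) and Nr3c1 (5.89 CPM per kb) were close together, and Nr3c2 (3.36 CPM per kb) and Pdk4 (3.34 CPM per kb), which encodes a mitochondrial kinase that holds back glucose oxidation, were the lowest. The ranges over libraries overlapped between all neighbours in this order except Mt1 and Sgk1. Read numbers were ample, with 188 reads for Nr3c2 as the lowest value of any of the 10 genes in a library.

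**Figure D1:**
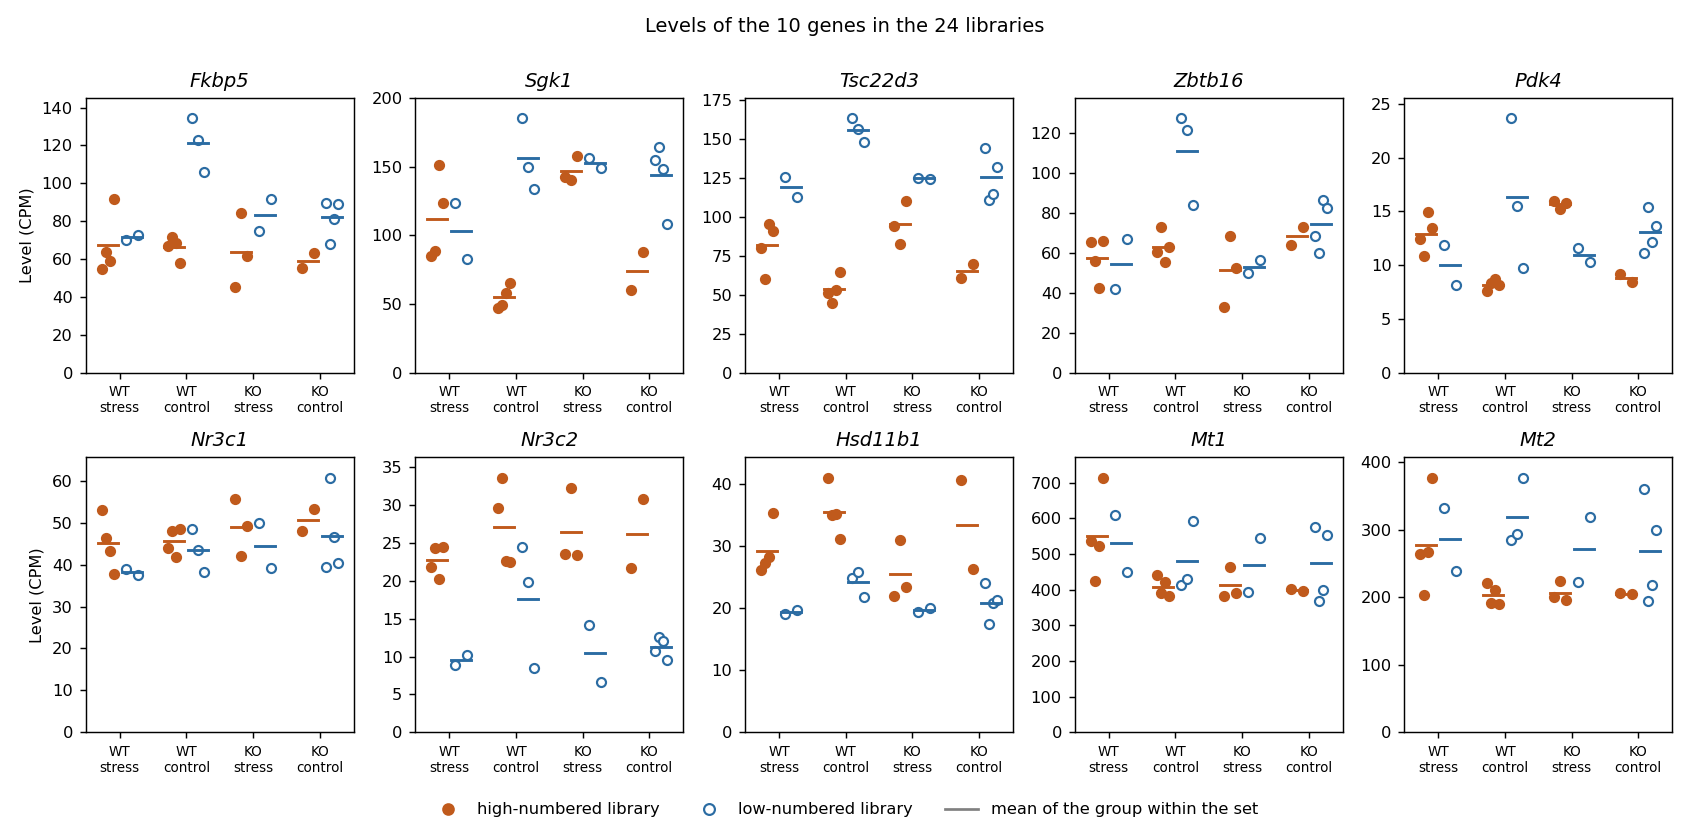
Level of each gene (CPM, linear axis from 0) in every library of the 4 groups; filled points are high-numbered and open points low-numbered libraries, and short lines are the mean of a group within a set. Nr3c2 and Hsd11b1 lie higher, and Tsc22d3 lies lower, in high-numbered libraries, with Tsc22d3 at 44.5 to 110 CPM in these against 111 to 163 CPM in the low-numbered ones.

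Over all libraries of a group, none of the 10 genes passed the test between stress and control mice in either genotype. Calls here and below are genes with an adjusted p under 0.05 in the edgeR quasi-likelihood test with Benjamini-Hochberg adjustment over all genes tested, and each log2 fold change is given ± its standard error (SE). In WT mice 0 of the 10 genes were called, where 0.135% of all 16313 genes were. In KO mice 0 of the 10 were called, where 0.00613% of all genes were. For each of the 10 genes, stress and control libraries overlapped in range within each genotype. At an unadjusted p under 0.05 stood Zbtb16 and Mt1 in WT mice and Zbtb16 in KO mice, and DESeq2 called 0 of the 10 in either genotype.

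Zbtb16, a glucocorticoid-induced transcription factor of the BTB zinc finger family, had the largest pooled difference. Its lowest, median and highest levels were 41.9, 60.6 and 67.1 CPM in WT stress libraries, against 55.5, 72.8 and 127 CPM in WT controls. It stood at 33.1, 68.3, 52.4, 49.6 and 56.4 CPM in the 5 KO stress libraries, against a lowest, median and highest of 59.8, 70.5 and 86.4 CPM in KO controls. The stress libraries thus sat lower in both genotypes, with overlap. The log2 fold change was −0.57 ± 0.19 in WT mice, with an adjusted p of 0.684, and −0.47 ± 0.21 in KO mice, with an adjusted p of 0.988. Averaged over the genotypes it was −0.52 ± 0.14, which missed the threshold in edgeR (adjusted p = 0.245) and passed it in DESeq2 (adjusted p = 0.0462). In that average 0 of the 10 genes were called by edgeR, where 0.215% of all genes were, and Zbtb16 was the only 1 of the 10 at an unadjusted p under 0.05.

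Fkbp5, the member most used as a marker of glucocorticoid action, averaged 68.7 ± 13.2 CPM in WT stress libraries (SD, n = 6) and 89.7 ± 30.8 CPM in WT controls (SD, n = 7). In KO mice it averaged 71.6 ± 18.5 CPM under stress (SD, n = 5) and 74.3 ± 14.5 CPM in controls (SD, n = 6). Its log2 fold change with stress was thus on the low side in WT (−0.38 ± 0.20, adjusted p = 1) and close to 0 in KO libraries (−0.05 ± 0.22, adjusted p = 0.993). Mt1 was on the high side in WT stress libraries, at 543 ± 107 CPM (SD, n = 6) against 439 ± 71.5 CPM in WT controls (SD, n = 7), a log2 fold change of 0.31 ± 0.13 (adjusted p = 1). Hsd11b1 had −0.24 ± 0.18 in WT mice. The remaining 6 genes had a WT difference smaller than its SE, from −0.33 ± 0.36 for Nr3c2 to 0.15 ± 0.30 for Sgk1 and 0.15 ± 0.18 for Mt2.

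The genotypes were not told apart by these genes. The question whether the knockout alters the stress difference was asked by the interaction, the KO stress difference minus the WT stress difference, in which 0 of the 10 genes and 0.0% of all genes were called. The largest interaction value among the 10 genes was 0.63 ± 0.52 for Nr3c2, and none was at an unadjusted p under 0.05. KO stress against WT stress libraries gave 0 calls among the 10 genes and 0.0% of all genes, with Mt1 at an unadjusted p under 0.05 (log2 fold change −0.32 ± 0.14, adjusted p = 0.798). KO against WT controls also gave 0 calls among the 10 genes and 0.0% of all genes, with none of the 10 at an unadjusted p under 0.05. DESeq2 called 0 of the 10 in each of these 3 comparisons. At an unadjusted p under 0.05, edgeR had 384 genes in the interaction, 768 between the stress groups and 493 between the controls, and DESeq2 called 4, 3 and 8 genes. The bounds are wide at this number of libraries: the SE of a KO against WT difference was 0.10 to 0.36 in controls and 0.11 to 0.39 under stress over the 10 genes.

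The library set went with the level of 6 of the 10 genes, in a test where 20.8% of all genes were called. Nr3c2 and Hsd11b1, which encodes the reductase that turns inert 11-dehydrocorticosterone back into corticosterone inside cells, were higher in high-numbered libraries, Nr3c2 by 1.06 ± 0.16 on the log2 scale (adjusted p = 5.7e-05) and Hsd11b1 by 0.56 ± 0.08 (adjusted p = 3.4e-05). Tsc22d3 (−0.92 ± 0.12, adjusted p = 2.2e-05), Sgk1 (−0.71 ± 0.19, adjusted p = 0.0112), Fkbp5 (−0.49 ± 0.11, adjusted p = 0.0031) and Mt2 (−0.39 ± 0.11, adjusted p = 0.0184) were lower. DESeq2 called 6 of the 10 as well, and 6 were called whichever library was left out. The share of all genes called in these runs is not given here. Nr3c1, Zbtb16, Mt1 and Pdk4 did not pass this test.

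Split by treatment, the set difference was called for 3 of the 10 genes in stress libraries, where 4.97% of all genes were called, and for 7 of the 10 in control libraries, where 19.3% were. Tsc22d3, Nr3c2 and Hsd11b1 were called in both, in the same direction in each. Sgk1 had a set difference of 0.03 ± 0.16 in stress libraries (adjusted p = 0.941) and −1.24 ± 0.16 in controls (adjusted p = 6.6e-05). Pdk4 had 0.44 ± 0.17 in stress libraries (adjusted p = 0.125) and −0.78 ± 0.15 in controls (adjusted p = 0.00178). The test of this change itself is the difference in stress effects between the sets, given below.

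**Figure D2:**
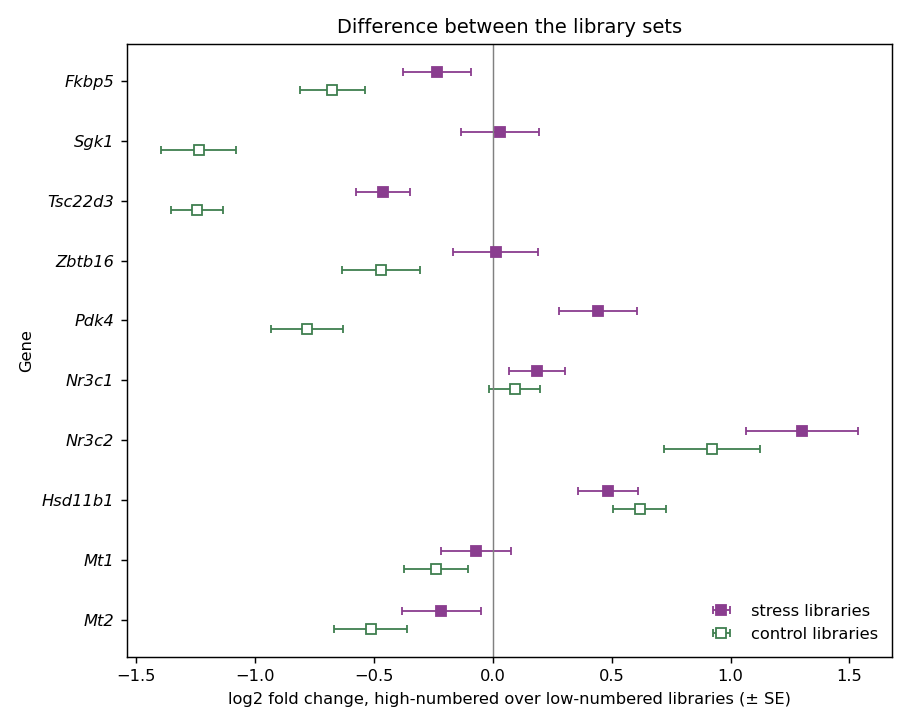
Log2 fold change (± SE) of high-numbered over low-numbered libraries for each gene, averaged over the genotypes; filled squares are stress libraries and open squares control libraries. Sgk1 lies at 0.03 in stress libraries and at −1.24 in controls, while Nr3c2 lies at 1.30 and 0.92.

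Of the receptors, the mineralocorticoid receptor gene Nr3c2 varied more than the glucocorticoid receptor gene Nr3c1. Nr3c1 stayed within 37.6 to 60.8 CPM over all 24 libraries, a range of 1.62-fold, while Nr3c2 ran from 6.69 to 33.7 CPM, a range of 5.03-fold. In WT stress, Nr3c2 had 21.8, 24.4, 20.2 and 24.5 CPM in high-numbered and 8.88 and 10.2 CPM in low-numbered libraries. In WT controls it had 29.7, 33.7, 22.6 and 22.5 CPM in high-numbered and 24.5, 19.9 and 8.54 CPM in low-numbered libraries. The set thus parted the Nr3c2 levels of WT stress libraries without overlap, while WT control libraries of the sets overlapped. In KO stress it had 23.6, 32.3 and 23.4 CPM in high-numbered and 14.1 and 6.69 CPM in low-numbered libraries. In KO controls it had 21.8 and 30.8 CPM in high-numbered libraries, against 10.7, 12.6, 12.1 and 9.49 CPM in low-numbered ones. The ratio of Nr3c2 to Nr3c1 reads, which is not scaled for gene length, had a median of 0.526 in high-numbered libraries (range 0.411 to 0.769) and 0.259 in low-numbered ones (range 0.171 to 0.505). Within the high-numbered set the ratio was 0.411 to 0.652 in WT stress and 0.465 to 0.702 in WT control libraries, and 0.423 to 0.769 in KO stress and 0.453 to 0.577 in KO control libraries, so the groups overlapped. Markers of CA1 and CA3 pyramidal cells and of granule cells also had higher medians in the high-numbered set. Their summed levels had medians of 1079.8 CPM in high-numbered and 777 CPM in low-numbered libraries for CA1 and CA3, and 336 and 208 CPM for the dentate gyrus. By library this did not hold throughout. High-numbered WT stress 5 and KO stress 3 and 5 had CA1 and CA3 sums of 701, 643 and 712 CPM, below the low-numbered median. Their Nr3c2 levels were 20.2, 23.6 and 23.4 CPM. The other high-numbered libraries had CA1 and CA3 sums of 986 to 1279 CPM. Markers of CA2 pyramidal cells went the other way, with medians of 346 CPM in high-numbered and 382 CPM in low-numbered libraries. So did those of neocortex (356 and 522 CPM) and striatum (229 and 389 CPM). The part of cell makeup in the Nr3c2 difference was not tested, and in tissue RNA fewer cells of a type and less RNA per cell cannot be told apart.

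**Figure D3:**
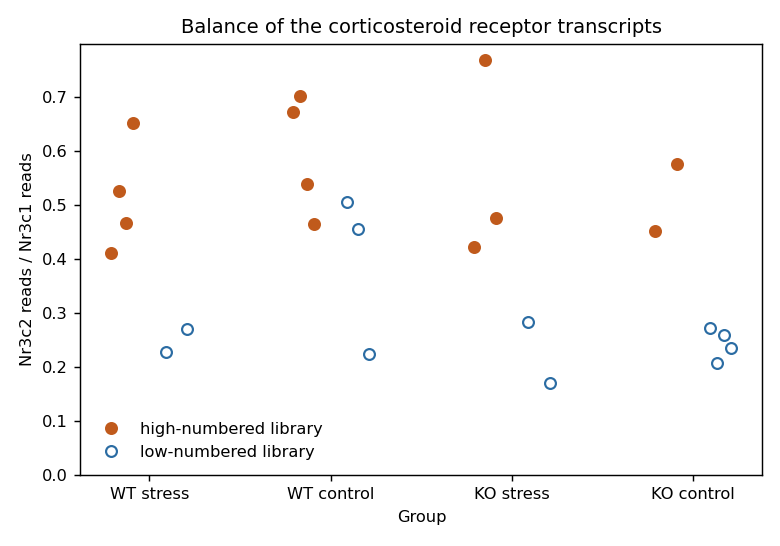
Ratio of Nr3c2 reads to Nr3c1 reads in each library (linear axis from 0), by group; filled points are high-numbered and open points low-numbered libraries. The low-numbered libraries lie between 0.171 and 0.505, with 2 WT controls above 0.411, the lowest high-numbered value.

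Hsd11b1 also lay higher in the high-numbered set, and its stress and control libraries overlapped within it. In WT stress it had 26.2, 27.2, 28.3 and 35.4 CPM in high-numbered libraries, against 41.1, 35.0, 35.2 and 31.2 CPM in WT controls. In KO stress it had 21.9, 31.1 and 23.5 CPM in high-numbered libraries, against 40.7 and 26.3 CPM in KO controls. The highest library was a control in both genotypes. The averaged log2 fold change in the high-numbered set was −0.34 ± 0.11 and was not called (adjusted p = 0.133).

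Within the high-numbered set, Sgk1, Tsc22d3 and Pdk4 were higher in stress than in control libraries, averaged over the genotypes. The calls come from a fit of 8 means, 1 for each group in each set. In this average 3 of the 10 genes were called, where 0.846% of all genes were. DESeq2 called 3 of the 10 as well.

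Sgk1 had 84.9, 88.8, 151 and 123 CPM in WT stress libraries of the high-numbered set, against 46.8, 49.1, 57.9 and 65.5 CPM in WT controls. It had 143, 140 and 158 CPM in KO stress libraries, against 59.8 and 87.8 CPM in KO controls. Every stress library of this set lay above every control library of its genotype. The log2 fold change of Sgk1 averaged 1.01 ± 0.15 (adjusted p = 0.00227), with 1.03 ± 0.19 in WT (adjusted p = 0.0143) and 0.99 ± 0.25 in KO libraries (adjusted p = 0.282).

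Tsc22d3 had 80.2, 60.1, 95.5 and 90.8 CPM in WT stress libraries of this set, against 51.4, 44.5, 52.8 and 64.7 CPM in WT controls, where 1 stress library fell within the control range. It had 94.3, 82.5 and 110 CPM in KO stress libraries, against 60.7 and 69.5 CPM in KO controls, with no overlap. The log2 fold change of Tsc22d3 averaged 0.58 ± 0.11 (adjusted p = 0.00771), with 0.61 ± 0.13 in WT (adjusted p = 0.0374) and 0.56 ± 0.17 in KO libraries (adjusted p = 0.3).

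Pdk4 had 12.4, 10.8, 14.9 and 13.5 CPM in WT stress libraries of this set, against 7.62, 8.35, 8.68 and 8.13 CPM in WT controls. It had 16.0, 15.2 and 15.8 CPM in KO stress libraries, against 9.22 and 8.42 CPM in KO controls. Pdk4 was the only 1 of the 10 genes whose stress libraries all lay above all control libraries of the set when the genotypes were pooled. How many of all genes had such a gap, here or by genotype as for Sgk1, was not counted. The log2 fold change of Pdk4 averaged 0.74 ± 0.15 (adjusted p = 0.0195), with 0.66 ± 0.18 in WT (adjusted p = 0.179) and 0.83 ± 0.24 in KO libraries (adjusted p = 0.296).

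By genotype, 2 of the 10 genes (Sgk1 and Tsc22d3) were called in WT mice of the high-numbered set, where 0.405% of all genes were. In KO mice 0 of the 10 were called, where 0.0% of all genes were. Neither Sgk1 nor Tsc22d3 kept its call in WT mice without the 3 libraries rich in thalamus and habenula transcripts. With the high-numbered libraries fitted alone, 1 of the 10 was called in WT mice, where 0.121% of all genes were. In the KO mice of this set 4 of the 10 genes and 2174 of all genes were at an unadjusted p under 0.05, and this contrast rests on 3 stress and 2 control libraries. Whether the genotypes differ within the set was not tested. Fkbp5 had a difference of 0.07 ± 0.13 in the high-numbered average (adjusted p = 0.814). Its levels were 54.7, 64.0, 58.9 and 91.8 CPM in WT stress libraries, against 67.1, 71.4, 68.3 and 57.6 CPM in WT controls, and 45.2, 84.5 and 61.6 CPM in KO stress libraries, against 55.0 and 62.9 CPM in KO controls. Stress and control libraries overlapped for Fkbp5 in both genotypes. The value of Fkbp5 near 0 depended on the 3 libraries rich in thalamus and habenula transcripts. KO stress 3 and 5 held 45.2 and 61.6 CPM, against 84.5 CPM in the remaining KO stress library. WT stress 5, at 58.9 CPM, lay among the remaining WT stress libraries at 54.7, 64.0 and 91.8 CPM. Without the 3 libraries rich in thalamus and habenula transcripts the stress difference of Fkbp5 was larger, with only that KO stress library left in the set. Zbtb16 had −0.27 ± 0.16 in the high-numbered average (adjusted p = 0.376), and the receptors Nr3c1 (−0.03 ± 0.11) and Nr3c2 (−0.12 ± 0.20) were close to 0.

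The KO part of the calls of Sgk1, Tsc22d3 and Pdk4 rests on 3 stress and 2 control libraries. With 1 library left out in turn, Sgk1 kept its call in 23 of 24 runs, Tsc22d3 in 22 and Pdk4 in 21. Leaving out the 3 libraries rich in thalamus and habenula transcripts leaves KO stress replicate 4 as the only KO stress library of this set. The averages were then 0.89 ± 0.17 for Sgk1, 0.43 ± 0.12 for Tsc22d3 and 0.68 ± 0.19 for Pdk4, each smaller than with all libraries. Calls of this average are not counted here. With the high-numbered libraries fitted alone, 2 of the 10 were called, where 0.417% of all genes were: Sgk1 (adjusted p = 0.0241) and Pdk4 (adjusted p = 0.00401), with Tsc22d3 at an adjusted p of 0.0659. Calls were lost when KO control replicate 5 or 6 was left out, and each run leaves the other as the only KO control library of this set. The Sgk1 average was 0.89 without KO control replicate 5. Markers of other cells also had other mean levels in stress than in control libraries of this set. All 14 endothelial markers had a higher mean in WT stress than in WT control and in KO stress than in KO control libraries, with summed levels of 498 to 532 CPM against 375 to 404 CPM in WT and of 450 to 581 CPM against 384 to 400 CPM in KO mice. Of 12 oligodendrocyte markers, 11 had a higher mean in WT stress and 12 in KO stress libraries (summed levels 4177 to 7887 CPM against 3802 to 7250 CPM in WT, and 6277 to 11677 CPM against 4804 to 5739 CPM in KO mice). Of 11 markers of pericytes and smooth muscle, 11 had a higher mean in WT stress and 10 in KO stress libraries. Blood cell markers lay higher too. Of 11 measured markers of neutrophils and monocytes, 11 had a higher mean under stress in each genotype, with sums of 17.6 to 36.5 CPM in WT stress against 2.51 to 3.32 CPM in WT control and of 3.96 to 20.3 CPM in KO stress against 3.46 to 4.85 CPM in KO control libraries. These are low levels, and 8 of the 11 had no read in at least 1 of the 24 libraries. Of 8 red blood cell markers, 7 had a higher mean under stress in each genotype, with sums of 105 to 150 CPM against 76.8 to 83.0 CPM in WT and of 113 to 134 CPM against 80.7 to 90.6 CPM in KO mice. Bpgm had the most reads of these 8, at 1891 to 3197 per library. Of the 8, 5 had no read in at least 1 of the 24 libraries, and 1 of these had none in any. The sums of these blood cell lists did not overlap in WT mice, and in KO mice those of neutrophils and monocytes did. Of 12 microglial markers, 10 had a higher mean in WT stress and 8 in KO stress libraries. Markers of neighbouring tissue were among them. The 16 thalamus and habenula markers all had a higher mean under stress in each genotype. Of 15 choroid plexus markers, 15 had a higher mean in KO stress libraries (summed levels 1139 to 2719 CPM against 160 to 161 CPM) and 3 in WT stress libraries (119 to 2760 CPM against 179 to 3186 CPM). Of 10 CA1 and CA3 markers, 1 had a higher mean under stress in each genotype, with sums of 701 to 1279 CPM against 1041 to 1203 CPM in WT and of 643 to 1017 CPM against 1081 to 1104 CPM in KO mice. Of 12 astrocyte markers, 9 had a higher mean under stress in each genotype, and their sums overlapped in range at 3982 to 4824 CPM in stress libraries and 4159 to 4438 CPM in controls of this set. The part of these cells and tissues in the differences of Sgk1, Tsc22d3 and Pdk4 was not tested.

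In the low-numbered set, no gene of the 10 was called, and the WT stress libraries lay on the low side. The stress average, the WT contrast and the KO contrast each called 0 of the 10 genes and 0.0% of all genes (edgeR had 1109, 1581 and 321 genes at an unadjusted p under 0.05). Of the 10 genes, 9 had a value below 0 in the average, with 4 at an unadjusted p under 0.05. Fkbp5 had 70.2 and 72.6 CPM in WT stress libraries, against 134, 123 and 106 CPM in WT controls, a log2 fold change of −0.76 ± 0.22 (adjusted p = 0.51). Sgk1 had 124 and 83.0 CPM in WT stress libraries, against 185, 150 and 134 CPM in WT controls (−0.60 ± 0.24, adjusted p = 0.51). Both genes thus had every stress library below every control, which was also so for Tsc22d3, Zbtb16 and Hsd11b1. These gaps rest on 2 stress and 3 control libraries. How many of all genes had such a gap was not counted in either genotype. In KO mice of this set, where 2 stress libraries stood against 4 controls, Fkbp5 had 75.0 and 91.5 CPM under stress against 89.7, 67.8, 81.1 and 89.1 CPM in controls (0.02 ± 0.20). Zbtb16 was the only 1 of the 10 genes without overlap in these KO mice, at 49.6 and 56.4 CPM under stress against 68.3, 59.8, 86.4 and 82.4 CPM in controls (−0.48 ± 0.25, adjusted p = 1).

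The stress average differed between the sets most for Sgk1 (1.27 ± 0.23, adjusted p = 0.0522), Pdk4 (1.22 ± 0.23, adjusted p = 0.0522) and Tsc22d3 (0.78 ± 0.16, adjusted p = 0.0553). In this test of high-numbered minus low-numbered stress differences, edgeR called 0 of the 10 genes, where 0.0184% of all genes were called, with 4 of the 10 at an unadjusted p under 0.05. DESeq2 called 3 of the 10, the same 3 genes that edgeR had nearest the threshold. Leaving out 1 library in turn gave 0 to 3 calls, with 3 when KO stress replicate 4, WT stress replicate 4 or WT control replicate 3 was left out. It gave 2 when WT stress replicate 3 or WT control replicate 7 was left out. The share of all genes called in these runs is not given here, so the counts are not set against a background.

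**Figure D4:**
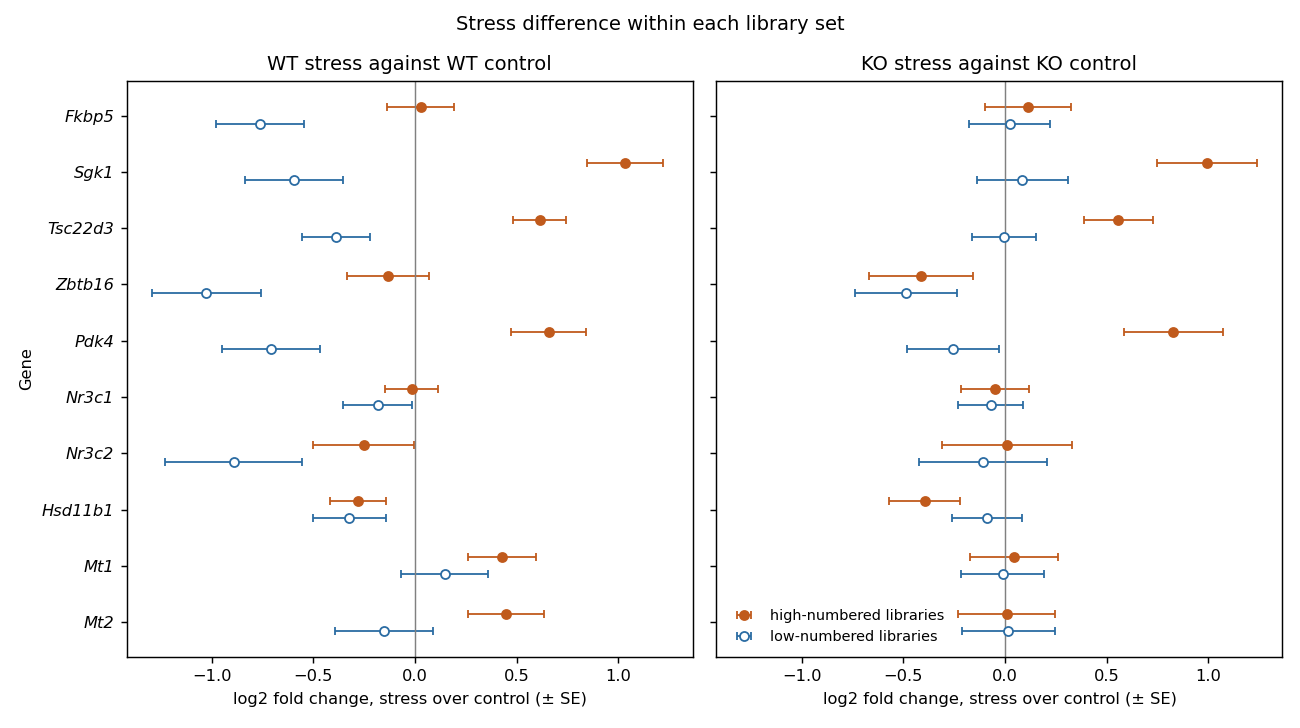
Log2 fold change (± SE) of stress over control for each gene within the high-numbered (filled) and the low-numbered libraries (open), in WT mice on the left and KO mice on the right. Sgk1 lies at 1.03 in high-numbered and −0.60 in low-numbered WT libraries, and at 0.99 and 0.08 in KO libraries.

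The metallothionein genes Mt1 and Mt2, which respond to glucocorticoids and to metals and are expressed mainly in astrocytes in brain, varied together from library to library. In WT stress libraries of the high-numbered set Mt1 had 536, 425, 524 and 715 CPM, against 441, 390, 422 and 382 CPM in WT controls. Mt2 had 264, 203, 266 and 377 CPM in those WT stress libraries, against 222, 192, 210 and 190 CPM in WT controls. For both genes 3 of the 4 WT stress libraries lay above all WT controls of the set, and the fourth lay among them. The differences of 0.43 ± 0.17 for Mt1 (adjusted p = 0.545) and 0.45 ± 0.19 for Mt2 (adjusted p = 0.616) were not called, and in KO mice of the set they were 0.05 ± 0.21 and 0.01 ± 0.24. The ratio of Mt1 to Mt2 reads was 1.90 to 2.09 in high-numbered libraries and 1.45 to 1.90 in low-numbered ones, with the lowest values, 1.45 to 1.58, in the 3 low-numbered WT controls.

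A wider list of 31 glucocorticoid-responsive genes, all of them measured, was set beside the 10. In the pooled stress average 1 of 31 was called (Tgm2, which encodes transglutaminase 2, at 0.65 ± 0.12, adjusted p = 0.0113), where 0.215% of all genes were, 14 of 31 values were above 0 and the median was −0.00026, against 0.00107 over all genes. The call was lost without the 3 thalamus-rich libraries, at 0.54 ± 0.11 (adjusted p = 0.0566), and with the replicate number as a block, at 0.61 ± 0.13 (adjusted p = 0.086). In the high-numbered set 5 of 31 were called higher and 0 lower, where 0.846% of all genes were called, 25 of 31 were above 0 and the median was 0.36, against 0.01 over all genes. Arrdc2, an arrestin domain gene, had 0.86 ± 0.13 (adjusted p = 0.00142), Tgm2 0.96 ± 0.15 (adjusted p = 0.00153) and Ddit4, an inhibitor of mTORC1 signalling, 0.38 ± 0.08 (adjusted p = 0.0255). The other genes called were Gjb6, an astrocyte connexin gene (0.39 ± 0.07), and Nfkbia, the gene of an inhibitor of NF-kB (0.49 ± 0.11). Leaving out the 3 thalamus-rich libraries leaves KO stress replicate 4 as the only KO stress library of this set. In that average 29 of 31 were above 0 and the median was 0.31. In the low-numbered set 0 of 31 were called, where 0.0% of all genes were, 7 were above 0 and the median was −0.14, against −0.01 over all genes. By genotype, 19 of 31 were above 0 in KO mice of the low-numbered set, with a median of 0.01, and 4 of 31 in WT mice, with a median of −0.36. In the high-numbered set these counts were 22 of 31 in KO mice, with a median of 0.27, and 29 of 31 in WT mice, with a median of 0.45. The list holds the astrocyte marker Gjb6 and the endothelial marker Mfsd2a.

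**Figure D5:**
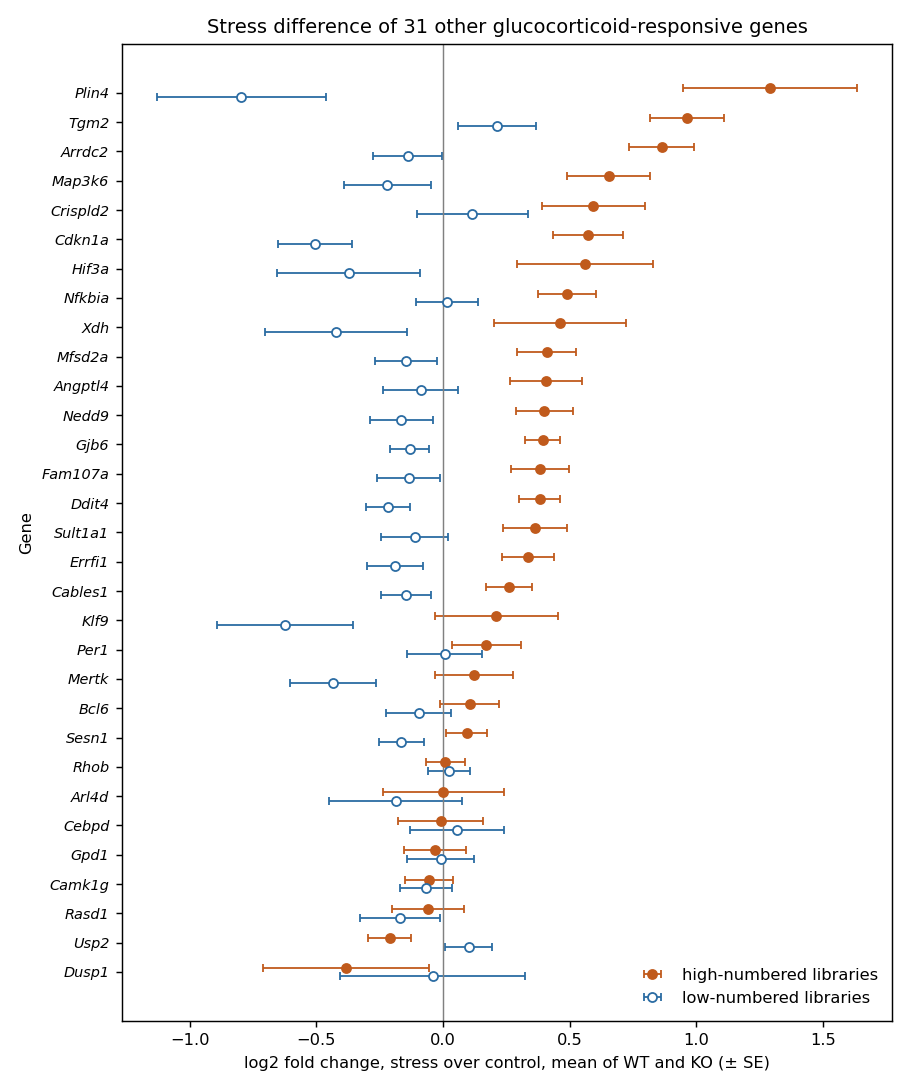
Log2 fold change (± SE) of stress over control, averaged over WT and KO, for the 31 listed genes in the high-numbered (filled) and the low-numbered libraries (open), ordered by the high-numbered value. In the high-numbered set 25 of 31 lie above 0, and in the low-numbered set 7 do.

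Levels in the list also went with the library set: 4 of 31 were higher and 12 lower in high-numbered libraries, where 20.8% of all genes were called. The lipid droplet gene Plin4 (−3.04 ± 0.37), the cell cycle inhibitor gene Cdkn1a (−1.54 ± 0.17), the hypoxia-inducible factor gene Hif3a (−1.42 ± 0.21) and the sulfotransferase gene Sult1a1 (−1.01 ± 0.12) were among the lower ones, each with an adjusted p of at most 6.9e-05. Plin4 had 2.41 to 13.7 CPM in WT stress and 2.54 to 4.31 CPM in WT control libraries of the high-numbered set, and 18.1 to 27.8 CPM in WT stress and 52.7 to 82.4 CPM in WT control libraries of the low-numbered set. Cebpd (0.88 ± 0.12) and Dusp1 (0.82 ± 0.24), a transcription factor gene and a phosphatase gene of early responses, were among the higher ones.

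Lists of related genes held no call in the 6 pooled comparisons of groups. Of 20 receptor chaperones and coregulators, 0 were called by edgeR or DESeq2, and the smallest p in the stress average belonged to Dnaja1 (−0.09 ± 0.05) and Hspa8 (−0.12 ± 0.06), both chaperones of the heat shock families. By library set 6 of these 20 were called, where 20.8% of all genes were, a share near the background. Of these, 5 were lower, among them the Hsp90 partners Fkbp4 (−0.29 ± 0.06) and Stip1 (−0.25 ± 0.05). Of 9 tested genes of steroid metabolism and transport, 0 were called by either tool, with the smallest p for Abcb1a, an efflux pump of the blood-brain barrier that exports steroids, at 0.18 ± 0.09 in the stress average and Star, which delivers cholesterol for steroid synthesis, at 0.10 ± 0.08. In the high-numbered stress average DESeq2 called these 2 genes higher, and edgeR called 0 of the 9. With the high-numbered libraries fitted alone edgeR called Abcb1a (0.39 ± 0.07, adjusted p = 0.0432). Of 4 other steroid receptor genes 0 were called, with Pgr at −0.13 ± 0.08 and Esr2 at −0.64 ± 0.53. Of 8 further genes of metal handling 0 were called, with the zinc importer gene Slc39a8 at 0.39 ± 0.13 and the zinc exporter gene Slc30a4 at −0.09 ± 0.07. Of 10 paralogs 0 were called, with Zbtb20, a hippocampal zinc finger factor, at −0.38 ± 0.20 and the kinase gene Sgk2 at 0.26 ± 0.17. At an unadjusted p under 0.05 in the stress average, edgeR had 0 of 20, 0 of 9, 0 of 4, 1 of 8 and 0 of 10 genes in these lists.

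The genes whose library-to-library variation was most like that of a member were found after the mean of each group within each set had been removed, by Pearson correlation of log2 CPM over the 24 libraries. The search ran over 16313 genes, so the highest values are raised by the selection, and none was tested. These values describe libraries that share depth, preparation and tissue makeup. The 2 closest genes of Fkbp5 were Serpina3n (r = 0.919) and Ehd3 (r = 0.910), and those of Sgk1 were Ctnna3 (r = 0.749) and Rhou (r = 0.748). Tsc22d3 varied most like Nsmce2 (r = 0.785) and Gm10714 (r = 0.777), Zbtb16 like St3gal2 (r = 0.925) and Sept3 (r = 0.858), and Pdk4 like Tlr4 (r = 0.811) and Nr2c1 (r = 0.790). The closest values of the 3 genes Sgk1, Tsc22d3 and Pdk4 were thus lower than those of most other members. For the receptors they were Glce (r = 0.942) and Rps6ka3 (r = 0.934) with Nr3c1, and Arhgap21 (r = 0.928) and Fam120a (r = 0.917) with Nr3c2. For Hsd11b1 they were Sox18 (r = 0.845) and Tnxb (r = 0.800), for Mt1 Gas5 (r = 0.925) and Rpl36a (r = 0.921), and for Mt2 Ndufv2 (r = 0.910) and Zcchc17 (r = 0.902). Among the 10 genes themselves, Mt1 and Mt2 varied most alike (r = 0.977), followed by Fkbp5 and Zbtb16 (r = 0.678), Fkbp5 and Hsd11b1 (r = 0.644) and Sgk1 and Tsc22d3 (r = 0.570).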

How the data were processed

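The authors deposited raw read counts of 24 libraries by gene symbol. STAR, DESeq2 and the build mm10 are named in the labels, per the submitters' processing notes, while the sources used here give neither the counter nor its use of strand. Between 70.9% and 75.8% of counts from 1 to 10 were even, so mates of a pair may have been counted separately. A floor of 3 counts lies at 0.0854 to 0.117 CPM per library, for counting error only. A deposited table of normalized values and 1 of the authors' comparison were not used.

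Groups and replicate numbers came from the titles. Genes were tested with edgeR 4.0.16 (TMM factors, robust quasi-likelihood fit, minimum count 10) on 4 group means over 24 libraries with 20 residual degrees of freedom and a biological coefficient of variation of 0.219. Benjamini-Hochberg adjustment ran over all 16313 genes, with a threshold of 0.05. SE is the size of the log2 fold change over the square root of F. The library set, split at 15000 CPM of Rn45s, was added as a term for the set difference, and 8 means of group by set gave the within-set calls. This last fit was chosen after seeing the data. The values of Rn45s are CPM over all reads, and other CPM use TMM-scaled totals. The tests were checked on simulated counts. Alternatives were RLE factors, DESeq2 1.42.0, other filters, a set term, a replicate block, and leaving out libraries. Gene positions are those of GENCODE for GRCm38, and promoters those of RefSeq.

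The 10 genes, the lists and the markers were chosen with earlier results of these data known. Named beside the 10 genes are up to 4 members of a list called in a pooled comparison, or else the 2 with the smallest p in the stress average, and 2 genes most like each member. Other list genes were named after their values were seen.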

Additional observations from a re-analysis of the deposited data

Results flagged for a closer look

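Within each of the 4 groups each gene's highest and lowest libraries were compared with the rest, in 40 tests of a gene in a group, of which chance alone would mark about 1 in 20. A pair of values stood apart, both in the metallothionein pair and both in low-numbered libraries. Mt2 had 319 CPM in KO stress replicate 2, against 196 to 223 CPM in the other KO stress libraries. Mt1 had 594 CPM in WT control replicate 3, against 382 to 441 CPM in the other WT controls. The cause was not tested.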

How the results depend on the processing

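Of the 10 genes, 0 were called in each of the 5 comparisons of WT and KO groups under every alternative run, and 6 between the library sets under each alternative run. In the pooled stress average DESeq2 called 1 (Zbtb16), and every other alternative called 0. In the high-numbered stress average, Sgk1, Tsc22d3 and Pdk4 kept their calls in 23, 22 and 21 of 24 runs with 1 library left out. Hsd11b1 was called in 1 of these runs. Calls were lost without KO control replicate 5 or 6, and each run leaves the other as the only KO control library of the set. Without the 3 thalamus-rich libraries KO stress replicate 4 is the only KO stress library of the set, and calls are not counted. The difference of stress averages between the sets had 0 calls in edgeR, 3 in DESeq2 and 0 to 3 when 1 library was left out. Correlations of same-numbered libraries between groups ran from −0.278 to 0.489. Those of differently numbered libraries were not computed, so whether replicate numbers pair the samples was not tested. With the replicate number as a block, 0 of the 10 genes were called in each of the 6 pooled comparisons, and over all genes 24 were called in WT stress, 1 in KO stress and 36 in the stress average. Tgm2 lost its call under the block. DESeq2 called more genes over all, 61 in WT stress, 12 in KO stress, 77 in the pooled stress average, 608 in the high-numbered stress average and 118 in the difference between the sets, where edgeR called 22, 1, 35, 138 and 3. Without the 3 thalamus-rich libraries edgeR called 20 genes in the pooled stress average and 5165 between the sets.

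Values close to 0 changed sign, none of them called either way, and the cause was not tested. With the library set as a term the log2 fold changes became Tsc22d3 0.194 in WT stress against WT control, Fkbp5 0.0827 and Mt2 0.0121 in KO stress against KO control, Tsc22d3 −0.00132, Mt1 −0.00478 and Pdk4 −0.0419 in KO against WT controls and Tsc22d3 0.271 in the pooled stress average. With the replicate block they became Tsc22d3 0.0117 in WT stress against WT control, Tsc22d3 −0.027 in KO stress against KO control, Tsc22d3 −0.0387 in the interaction and Mt1 −0.00149 and Pdk4 −0.0294 in KO against WT controls. Without the 3 thalamus-rich libraries they became Pdk4 −0.0391 in WT stress against WT control, Fkbp5 0.171, Mt1 0.0598 and Mt2 0.0453 in KO stress against KO control, Nr3c1 −0.0748 in the interaction, Nr3c2 −0.0222 in KO stress against WT stress, Tsc22d3 0.0098 in the pooled stress average, Nr3c2 0.0493 in the high-numbered stress average and Nr3c1 −0.00791 and Hsd11b1 0.0169 in the difference of stress averages between the sets. Leaving out 1 library in turn gave these ranges across 0. In WT stress against WT control they were −0.173 to 0.121 for Tsc22d3 and −0.0458 to 0.3 for Pdk4. In KO stress against KO control they were −0.163 to 0.0734 for Fkbp5, −0.146 to 0.0346 for Mt1, −0.236 to 0.045 for Mt2, −0.0939 to 0.0426 for Nr3c1, −0.089 to 0.135 for Tsc22d3 and −0.25 to 0.0756 for Hsd11b1. In the interaction they were −0.0324 to 0.109 for Nr3c1, −0.0986 to 0.201 for Tsc22d3, −0.0423 to 0.217 for Zbtb16, −0.00406 to 0.318 for Hsd11b1, −0.0757 to 0.276 for Sgk1 and −0.0673 to 0.293 for Pdk4. In KO against WT controls they were −0.0478 to 0.121 for Mt1, −0.166 to 0.0905 for Mt2, −0.09 to 0.271 for Pdk4 and −0.0105 to 0.288 for Tsc22d3. In KO stress against WT stress they were −0.0465 to 0.186 for Fkbp5, −0.235 to 0.00773 for Zbtb16 and −0.116 to 0.346 for Nr3c2. In the pooled stress average they were −0.0722 to 0.0713 for Tsc22d3, −0.0438 to 0.0969 for Mt2 and −0.139 to 0.126 for Nr3c2. In the high-numbered stress average they were −0.0852 to 0.00558 for Nr3c1, −0.236 to 0.0108 for Nr3c2 and −0.0685 to 0.168 for Fkbp5. In the difference of stress averages between the sets they were −0.278 to 0.0428 for Hsd11b1 and −0.00153 to 0.181 for Nr3c1. 

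Depth was ample for these genes, each of which had at least 188 reads in every library. Within sets a group has 2 to 4 libraries, and a contrast of KO mice rests on at most 6. Leaving out the 3 thalamus-rich libraries leaves KO stress replicate 4 as the only KO stress library of the high-numbered set.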
